A study of Mus musculus with 15 samples.

Results

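The genes described here build, break down and localise the cyclic AMP signal, and some also handle cyclic GMP: the adenylyl cyclases (Adcy), the cyclic nucleotide phosphodiesterases (Pde) and the A-kinase anchoring proteins (Akap). They were taken by symbol and level: a symbol of Adcy, Pde or Akap followed by the family's number (and, for Pde, a letter), and a mean of at least 0.5 CPM (counts scaled to the total of the library) over all 15 libraries. Of the 24420 rows of the table, 48 had such a symbol and 39 reached the level, with 10 of 10 Adcy, 19 of 24 Pde and 10 of 14 Akap rows. The member just inside the level was Pde6g at 0.557 CPM, and the row just outside it was Pde6a at 0.341 CPM. The rows below the level were Pde6a, Pde6b, Pde6c, Pde6h, Pde11a, Akap2, Akap3, Akap4 and Akap14. All 39 members passed the filter on low counts.

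Adenylyl cyclases make cyclic AMP from ATP. Most of them sit in the plasma membrane, where G proteins (and, for some, calcium with calmodulin) turn them on or off, while Adcy10 encodes the soluble form that bicarbonate and calcium stimulate. Phosphodiesterases hydrolyse the messenger, and their families differ in whether they accept cyclic AMP, cyclic GMP or both. Anchoring proteins tie protein kinase A to a place in the cell, together with its substrates and often with a phosphodiesterase. In Purkinje cells, whose axons carry all output of the cerebellar cortex, cyclic GMP and its kinase are known for their part in long-term depression of the parallel fibre synapse.

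RNA from dissected mouse cerebellum was sequenced in 3 groups of 5 libraries each. The WT group is wild type, strain FVB/nJ, 9 weeks old. The 82Q group carries Atxn1[82Q], an ataxin 1 allele with an expanded glutamine repeat of the kind that causes spinocerebellar ataxia type 1, also on FVB/nJ and at 9 weeks. The 82Q_M120A group carries Atxn1[82Q] together with CalphaLoxM120A, an altered allele of the protein kinase A catalytic subunit gene Prkaca, on a background labelled Mix:c57Bl/6J:FVB/nJ, at 8 weeks. The study's title places the question in Purkinje cells: whether less phosphorylation of ATXN1 by protein kinase A delays the ataxia. The design text calls Atxn1[82Q] a knockin. The sources used here name neither the promoter that drives it nor any Cre used with the kinase allele. No group carries the kinase allele alone, and in every comparison with 82Q_M120A the allele, the strain and the age of 8 weeks cannot be told apart.

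Libraries held 38.3 to 99.4 mega counts (median 81.7), and the lowest count of any member in any library was 14 (Pde6g). The labels call the libraries of a group replicates without naming separate animals, so each p-value measures only the spread between these libraries, which may be technical. A library's number is its column's place within its group. Prkaca was at 164 to 173 CPM in WT, 158 to 173 CPM in 82Q and 138 to 150 CPM in 82Q_M120A, and Atxn1 was called in none of the 3 comparisons. Gene counts do not read the M120A substitution or the repeat length, so neither gene checks the labels. Markers of Purkinje cells, 10 of 10, were called lower in both mutant groups against WT. Of all tested genes, 10.1% were called lower in 82Q and 17.8% in 82Q_M120A. Choroid plexus markers varied within groups, with summed levels of 41.3 to 2635 CPM in WT, 47.4 to 2828 CPM in 82Q and 25.2 to 2080 CPM in 82Q_M120A. The means were 1804, 1080 and 443 CPM in that order. In 82Q and in 82Q_M120A against WT, 0 of the 8 markers were called, beside 18.7% and 36.4% of all tested genes. The choroid plexus sum was thus uneven over the groups, and a fit with it as a covariate cannot fully separate it from group. Both lists touch results below and are given beside them.

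A gene was called where its adjusted p in an edgeR quasi-likelihood test across 16808 genes was under 0.05. In 82Q against WT, 10 of the 39 members were called, 5 higher and 5 lower, or 25.6% beside 18.7% of all tested genes (8.63% higher, 10.1% lower). In 82Q_M120A against WT, 15 of 39 were called, 7 higher and 8 lower, or 38.5% beside 36.4% of all tested genes (18.6% higher, 17.8% lower). In 82Q_M120A against 82Q, 6 of 39 were called, 4 higher and 2 lower, or 15.4% beside 18.9% of all tested genes (10.3% higher, 8.63% lower). With libraries scaled by their totals alone, the split against WT moved to 10 higher and 5 lower in 82Q and to 12 higher and 7 lower in 82Q_M120A. All tested genes moved the same way under that scaling, to 3063 higher and 1134 lower in 82Q (25% called) and to 4647 higher and 2107 lower in 82Q_M120A (40.2% called). With TMM scaling, the members' shares stood within a few points of the background in both comparisons that include 82Q_M120A and somewhat above it in 82Q against WT. With a test against a 1.2-fold change, 2, 6 and 1 of the 39 were called in the same order, beside 4.1%, 10.2% and 3.75% of all tested genes. Their median log2 fold change was 0.04, -0.01 and -0.01 in the order given, and the median over all genes tested was 0.01, 0.01 and -0.003. Both comparisons with WT share the WT libraries, and the side-by-side values below are descriptions of each comparison.

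**Figure D1:**
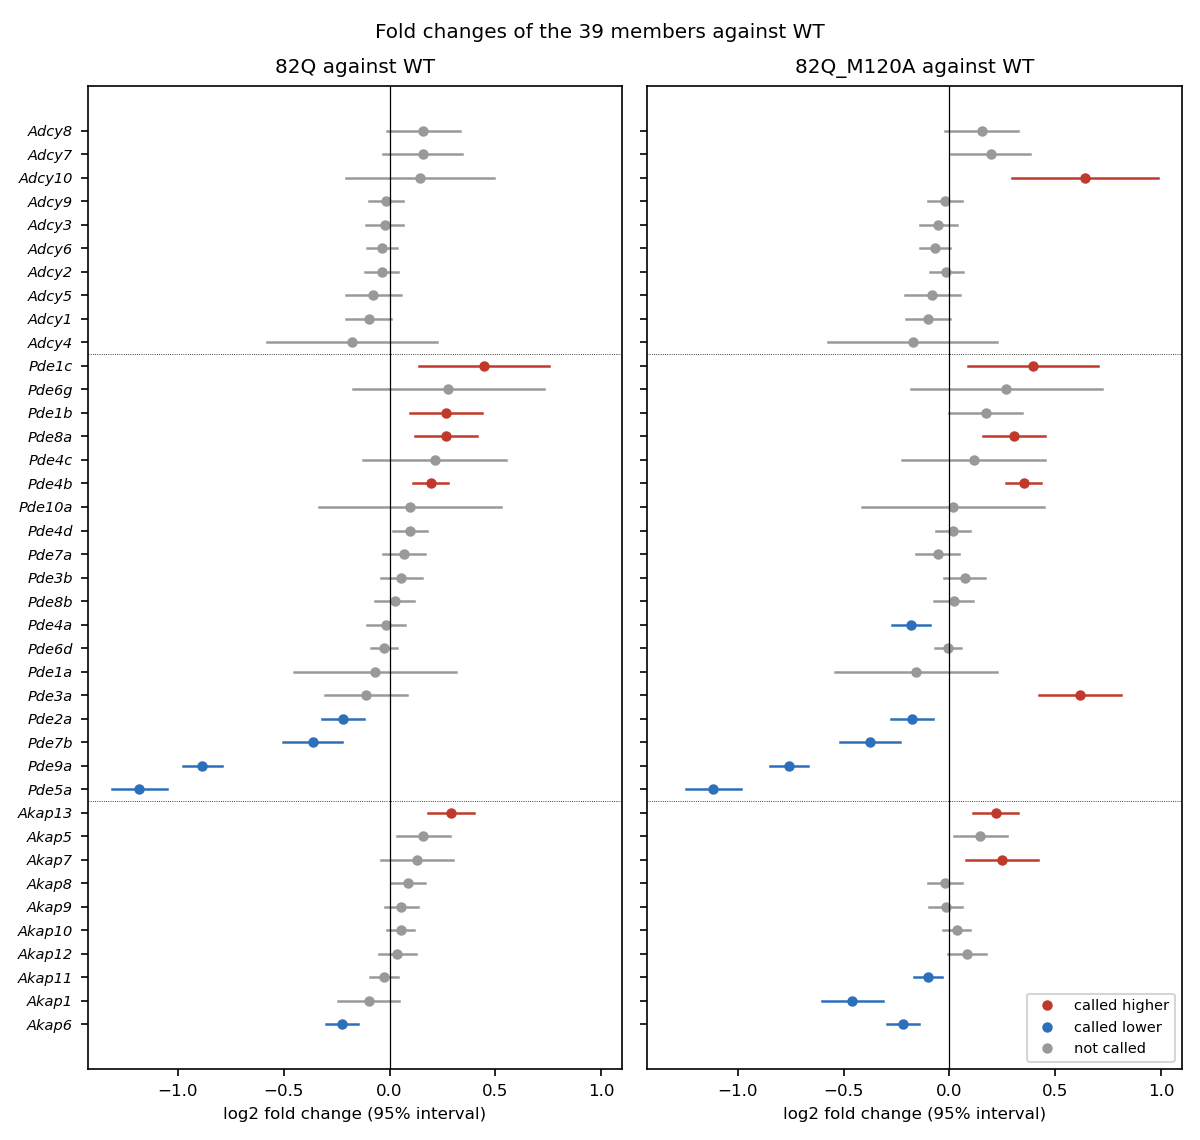
Log2 fold changes of the 39 members (points) with 95% intervals (lines) in 82Q against WT (left) and 82Q_M120A against WT (right), grouped by family; red marks members called higher, blue members called lower and grey members not called. Pde5a and Pde9a lie farthest left in both panels, at -1.18 and -0.89 in 82Q and at -1.12 and -0.76 in 82Q_M120A.

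Over all 3 comparisons, 16 members were called at least once: 1 of 10 Adcy, 10 of 19 Pde and 5 of 10 Akap, beside 44.3% of all tested genes called at least once. The family counts below stand beside the shares over all genes given above for each comparison. In 82Q against WT no Adcy was called, 8 of 19 Pde were (4 higher, 4 lower) and 2 of 10 Akap were (1 higher, 1 lower). In 82Q_M120A against WT the counts were 1 of 10 Adcy, 9 of 19 Pde (4 higher, 5 lower) and 5 of 10 Akap (2 higher, 3 lower). Against WT, 4 members were called higher in both mutant groups (Pde4b, Pde8a, Akap13 and Pde1c) and 5 were called lower in both (Pde5a, Pde9a, Pde7b, Pde2a and Akap6). The share of all tested genes called the same way in both was not counted. The shared WT libraries make such agreement more likely for any gene. Pde1b was called higher in 82Q against WT and not in 82Q_M120A against WT. Pde3a, Akap7 and Adcy10 were called higher, and Akap1, Pde4a and Akap11 lower, in 82Q_M120A against WT and not in 82Q against WT.

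The stretch in front of a start site holds many of the sequences through which transcription factors act, so promoters are shown for a few called members. RefSeq promoter entries on GRCm38.p6 were matched for 31 of the 39 members, with 59 start sites, and the 250 bases before each start were searched on both strands. The letters searched were TGACGTCA (the palindromic cyclic AMP response element), TGACG (its core, which lies within it), AGGTCA (the core element of nuclear receptors such as RORalpha, a Purkinje cell factor) and TGAATGAA and TGAATGGA (the octamers of CIC, a partner of ATXN1). The following upstream stretches run 5′ to 3′ on the gene's strand up to the base before the start. Capitals mark the matches. They show a lowered anchor with 1 match, a raised phosphodiesterase with matches to 2 of the motifs, and a raised anchor with none.
Akap6, chr12:52699133-52699382, plus strand: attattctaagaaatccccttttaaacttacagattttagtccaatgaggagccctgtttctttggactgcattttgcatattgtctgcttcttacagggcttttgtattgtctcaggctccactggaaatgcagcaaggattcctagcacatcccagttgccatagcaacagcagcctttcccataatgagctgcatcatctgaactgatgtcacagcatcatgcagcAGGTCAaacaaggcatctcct
Pde8a, chr7:81213015-81213264, plus strand: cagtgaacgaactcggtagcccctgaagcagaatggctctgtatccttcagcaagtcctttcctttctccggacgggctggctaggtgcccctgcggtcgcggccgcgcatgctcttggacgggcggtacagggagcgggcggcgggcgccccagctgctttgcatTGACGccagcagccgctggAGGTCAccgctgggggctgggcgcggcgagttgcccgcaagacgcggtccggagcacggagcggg
Akap13, chr7:75455284-75455533, plus strand: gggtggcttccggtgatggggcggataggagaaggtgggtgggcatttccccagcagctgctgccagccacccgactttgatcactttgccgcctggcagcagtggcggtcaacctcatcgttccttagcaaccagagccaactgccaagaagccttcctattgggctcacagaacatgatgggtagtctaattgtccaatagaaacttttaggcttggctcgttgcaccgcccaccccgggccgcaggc
The Akap6 stretch holds AGGTCA beginning 21 bases before the start. The Pde8a stretch holds TGACG at 84 and AGGTCA at 65 bases before the RefSeq start. That start lies upstream of the GENCODE M21 start of the gene, at 81213596, so the distances hold for the RefSeq start only.

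Over the members' 59 start sites, TGACGTCA was found in 0, beside 1.55% of all 32851 promoter entries. TGACG was found in 7 of 59 (11.9%, beside 17.8% of all), and AGGTCA in 7 of 59 (11.9%, beside 14.0%). TGAATGAA and TGAATGGA were found in 1 of 59 each, beside 1.08% and 1.01% of all. These shares are descriptions of letters in a 250-base window, and start sites of the same gene can share bases.

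The cyclic GMP-specific phosphodiesterases Pde5a and Pde9a had the largest changes among the members. Pde5a encodes the enzyme that sildenafil inhibits, and its gene lies at chr3:122728947-122859374 on the plus strand (GENCODE M21, GRCm38). Its level was 122, 113, 123, 124 and 128 CPM in WT, 53.3, 55.9, 57.8, 53.3 and 48.2 CPM in 82Q, and 59.9, 53.0, 48.8, 56.4 and 62.8 CPM in 82Q_M120A, here and below from library 1 to library 5. Every mutant library lay below every WT library, while both mutant groups overlapped. Pde5a fell by 1.18 ± 0.06 on the log2 scale (SE), or 2.27-fold, in 82Q against WT (adjusted p = 2.51e-10) and by 1.12 ± 0.06, or 2.17-fold, in 82Q_M120A against WT (adjusted p = 3.85e-10). In 82Q_M120A against 82Q it differed by 0.07 on the log2 scale (adjusted p = 0.505).

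Pde9a encodes the phosphodiesterase with the highest affinity for cyclic GMP, and its gene lies at chr17:31386210-31476310 on the plus strand. Its level was 75.2, 70.8, 76.0, 73.2 and 76.8 CPM in WT, 38.8, 40.9, 39.2, 42.7 and 39.8 CPM in 82Q, and 42.6, 42.7, 42.4, 49.5 and 42.8 CPM in 82Q_M120A. It fell by 0.89 ± 0.04 on the log2 scale, or 1.85-fold, in 82Q against WT (adjusted p = 7.89e-11) and by 0.76 ± 0.04, or 1.69-fold, in 82Q_M120A against WT (adjusted p = 3.28e-10). Neither mutant group reached the WT range. Of the members called in 82Q against WT, only Pde9a was called the other way in 82Q_M120A against 82Q, where it was higher by 0.13 ± 0.04 (adjusted p = 0.0485). That last difference was small: the groups overlapped, library 82Q_M120A-4 stood above the others at 49.5 CPM, and the call was lost in 18 of 26 alternatives, among them leaving out any 1 library other than 82Q-4, 82Q_M120A-1, 82Q_M120A-2 or 82Q_M120A-3. How many of all tested genes were called back toward WT in this way was not counted. Of the exon bases of Pde9a, 8.34% are shared with predicted genes on the opposite strand, and whether the counting used strand is unknown.

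Levels of different genes were added on a scale of CPM per kb of exon. Exon length was the union over all GENCODE M21 transcripts of a gene, and the annotation used in counting is unknown. Sums and rankings per kb, here and below, depend on these lengths. The cyclic GMP-specific pair summed to 33.4 ± 1.23 in WT (SD, n = 5), 16.8 ± 0.573 in 82Q and 18.2 ± 1.07 in 82Q_M120A. The 8 cyclic AMP-specific members summed to 40.4 ± 0.815, 42.6 ± 0.737 and 41.9 ± 0.811. The 7 members that accept both messengers summed to 37.3 ± 3.03, 40.3 ± 2.52 and 39.7 ± 0.365. The sum over all 19 Pde members was 131 ± 3.38 in WT, 119 ± 2.49 in 82Q and 119 ± 1.40 in 82Q_M120A, so the lower Pde total in the mutant groups lay in the cyclic GMP-specific pair. The summed level of the 10 Purkinje cell markers was 8827 to 9912 CPM in WT, 3450 to 4309 CPM in 82Q and 3478 to 4519 CPM in 82Q_M120A, lower in the same libraries as Pde5a and Pde9a, and its part in their change was not tested. Nor was the part of these markers tested in the falls of Pde7b, Pde2a, Akap6 and the pathway genes given below. In whole tissue, fewer cells of a type and less RNA per cell cannot be told apart.

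**Figure D2:**
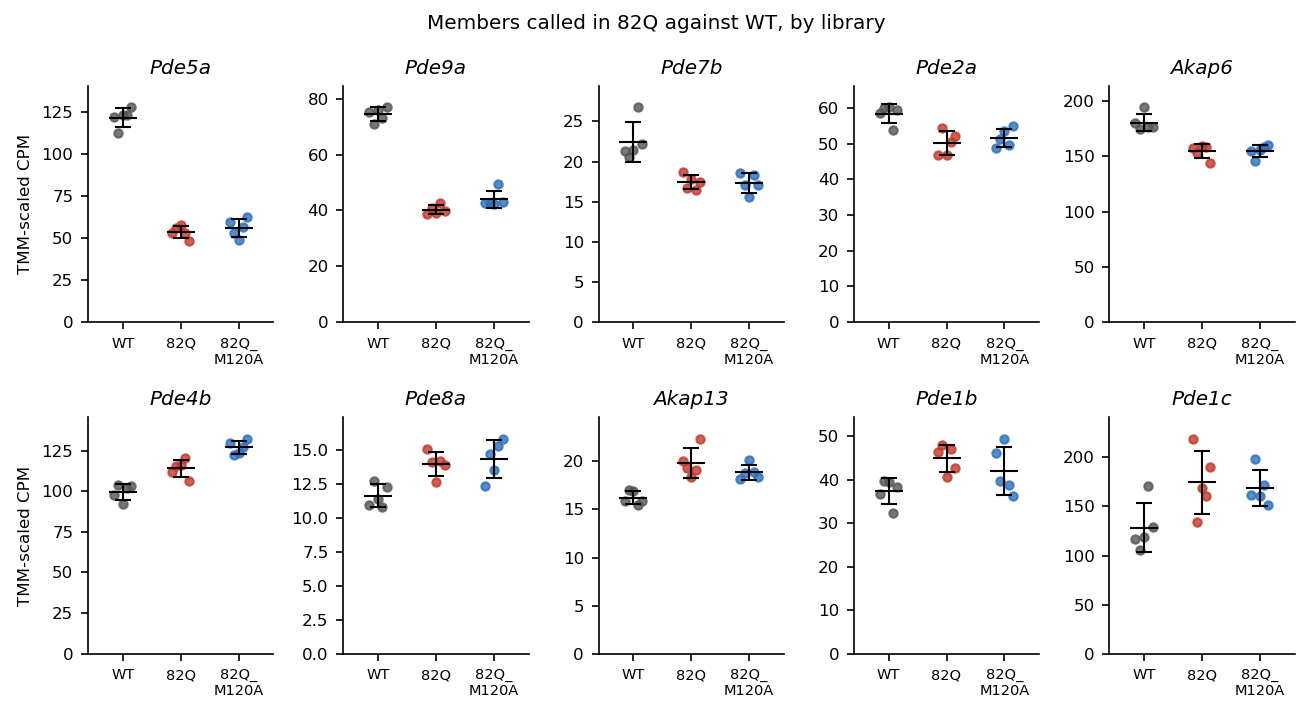
TMM-scaled CPM of the 10 members called in 82Q against WT, 1 point per library, with the mean (long line) and SD (short lines) of the 5 libraries of each group; the top row holds the members called lower and the bottom row those called higher. Pde5a and Pde9a show the widest gap, with WT at 113 to 128 and 70.8 to 76.8 CPM and 82Q at 48.2 to 57.8 and 38.8 to 42.7 CPM.

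Among the 8 cyclic AMP-specific phosphodiesterases, Pde4b and Pde8a were called higher and Pde7b lower against WT in both mutant groups. Pde4b encodes a rolipram-sensitive enzyme, at chr4:102087543-102607259 on the plus strand. Its level was 98.0, 104, 91.9, 102 and 103 CPM in WT, 112, 115, 116, 121 and 106 CPM in 82Q, and 130, 123, 124, 127 and 132 CPM in 82Q_M120A. The 3 groups did not overlap and stood in the order WT, 82Q, 82Q_M120A. Pde4b was higher by 0.19 ± 0.04 on the log2 scale in 82Q against WT (adjusted p = 0.0015), by 0.35 ± 0.04 in 82Q_M120A against WT (adjusted p = 1.39e-06) and by 0.16 ± 0.04 in 82Q_M120A against 82Q (adjusted p = 0.00831). It was the member called in the same direction in all 3 comparisons.

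Pde7b, a rolipram-insensitive enzyme gene at chr10:20398004-20725078 on the minus strand, was at 21.3, 20.5, 21.4, 26.7 and 22.2 CPM in WT. It was at 18.7, 16.7, 17.9, 16.5 and 17.5 CPM in 82Q, and at 18.6, 17.0, 15.5, 18.3 and 17.1 CPM in 82Q_M120A. Neither mutant group overlapped WT, in which WT-4 was high. Pde7b fell by 0.36 ± 0.07 on the log2 scale in 82Q (adjusted p = 0.00073) and by 0.37 ± 0.07 in 82Q_M120A (adjusted p = 0.000279).

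Pde8a encodes a high-affinity enzyme that the common inhibitor IBMX does not block, and its gene lies at chr7:81213596-81334533. Its level was 11.0, 12.8, 11.4, 10.8 and 12.3 CPM in WT, 15.1, 14.2, 12.7, 14.2 and 13.9 CPM in 82Q, and 12.4, 14.8, 13.6, 15.4 and 15.8 CPM in 82Q_M120A. Each mutant group overlapped WT in its lowest library. Pde8a was higher by 0.27 ± 0.07 (adjusted p = 0.0116) and 0.30 ± 0.07 (adjusted p = 0.00227) on the log2 scale. With the summed level of a list of brainstem and cerebellar nuclei markers as a covariate, the differences were 0.07 (adjusted p = 0.642) and 0.10 (adjusted p = 0.41). That summed level was 26.0 to 42.0 CPM in WT, 39.3 to 63.8 CPM in 82Q and 45.7 to 63.4 CPM in 82Q_M120A. WT hardly overlapped the mutant groups on this sum, so the covariate takes up part of any difference from WT. A call lost under it cannot tell this tissue from genotype. All-gene calls also fell under it, to 2369 from 3142 in 82Q and to 4141 from 6118 in 82Q_M120A, both against WT. The sum came almost wholly from Slc17a6 and Spp1, with Hoxb5 and Chat each under 0.05 CPM in the mean of every group. Under the same covariate, 4 other calls against WT were lost besides those of Akap13 and Pde1c: Pde7b in 82Q at -0.31 (adjusted p = 0.0512), Pde1b in 82Q at 0.19 (adjusted p = 0.317), Akap11 in 82Q_M120A at -0.01 (adjusted p = 0.83) and Adcy10 in 82Q_M120A at 0.62 (adjusted p = 0.0854).

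Pde4a, another member of the rolipram-sensitive family, was at 81.1 ± 1.27 CPM in WT, 80.2 ± 3.55 CPM in 82Q and 71.5 ± 5.08 CPM in 82Q_M120A (SD, n = 5). It fell by 0.18 ± 0.04 on the log2 scale in 82Q_M120A against WT (adjusted p = 0.00263) and by 0.17 ± 0.04 against 82Q (adjusted p = 0.0105). Pde4a and Pde4b, from the same family, thus moved in opposite directions in 82Q_M120A. The remaining cyclic AMP-specific members Pde4c, Pde4d, Pde7a and Pde8b were called in no comparison.

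The phosphodiesterases that accept both messengers changed in no single direction. Pde3a, which encodes a cyclic GMP-inhibited enzyme, lies at chr6:141249269-141507448 on the plus strand. Its level was 9.24, 8.98, 9.55, 11.7 and 9.14 CPM in WT, 10.6, 8.17, 8.49, 8.91 and 8.91 CPM in 82Q, and 14.6, 15.8, 12.1, 16.5 and 15.6 CPM in 82Q_M120A. All 82Q_M120A libraries lay above all others. Pde3a was higher in 82Q_M120A by 0.62 ± 0.09 on the log2 scale against WT (adjusted p = 4.58e-05) and by 0.73 ± 0.09 against 82Q (adjusted p = 2.36e-05), and both calls held in all 26 alternatives. In 82Q against WT it differed by -0.11 (adjusted p = 0.457). Vascular markers were also at their highest in 82Q_M120A, at 231 to 266 CPM in sum. They summed to 187 to 210 CPM in WT and 186 to 207 CPM in 82Q. In 82Q_M120A against WT, 3 of 8 were called higher, beside 18.6% of all tested genes. The part of these markers in the Pde3a difference was not tested. Slco1a4 (44.7 CPM in WT, 75.0 CPM in 82Q_M120A) and Rgs5 (24.3 and 36.8 CPM) carried most of that sum's difference, while Cldn5 (28.6 and 28.9 CPM) and Flt1 (43.2 and 43.7 CPM) were about level.

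Pde2a, which encodes the enzyme that cyclic GMP stimulates, was at 58.4 ± 2.62 CPM in WT, 50.1 ± 3.40 CPM in 82Q and 51.6 ± 2.62 CPM in 82Q_M120A. It fell by 0.22 ± 0.05 on the log2 scale in 82Q (adjusted p = 0.00289) and by 0.18 ± 0.05 in 82Q_M120A (adjusted p = 0.00686), and with the choroid plexus markers as a covariate the second was -0.13 (adjusted p = 0.0767). The predicted gene Gm45837 covers 64.32% of its exon bases on the same strand, so its reads may have been split or dropped in the counting. Among the 3 calmodulin-dependent Pde1 genes, Pde1b and Pde1c were called higher in at least 1 comparison, while Pde1a was called in none (-0.07, adjusted p = 0.842 in 82Q against WT and -0.16, adjusted p = 0.528 in 82Q_M120A against WT). Pde1b was at 37.4 ± 3.03 CPM in WT, 44.9 ± 3.10 CPM in 82Q and 42.0 ± 5.48 CPM in 82Q_M120A, and was higher by 0.27 ± 0.08 in 82Q against WT (adjusted p = 0.0289). It was not called in 82Q_M120A against WT (adjusted p = 0.111), and the call in 82Q was lost on leaving out WT-1, WT-4, 82Q-1, 82Q-2 or 82Q-4. Pde1c was at 106 to 170 CPM (mean 128) in WT, 134 to 219 CPM (mean 175) in 82Q and 151 to 198 CPM (mean 169) in 82Q_M120A, higher by 0.44 ± 0.14 in 82Q (adjusted p = 0.0447) and 0.39 ± 0.14 in 82Q_M120A (adjusted p = 0.0444). The Pde1c calls were close to the threshold and were lost in 17 and 16 of the 26 alternatives. The first was lost on leaving out any 1 library but WT-4, 82Q-2 or 82Q_M120A-2, and the second on leaving out any but WT-4, 82Q-1, 82Q-2 or 82Q_M120A-5. Pde10a, a gene best known from the striatum, ranged from 62.6 to 151 CPM within WT alone and was not called.

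In WT, Pde9a was the most abundant phosphodiesterase member at 21.0 CPM per kb, followed by Pde6d at 19.5 CPM per kb, with Pde5a at 12.4 CPM per kb. Pde6d encodes a carrier of prenylated proteins and no catalytic subunit. It was at 42.4, 41.6 and 42.2 CPM in the means of WT, 82Q and 82Q_M120A and was called in none of the comparisons. In 82Q and 82Q_M120A it stood first, and Pde9a was at 11.4 and 12.4 CPM per kb.

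**Figure D3:**
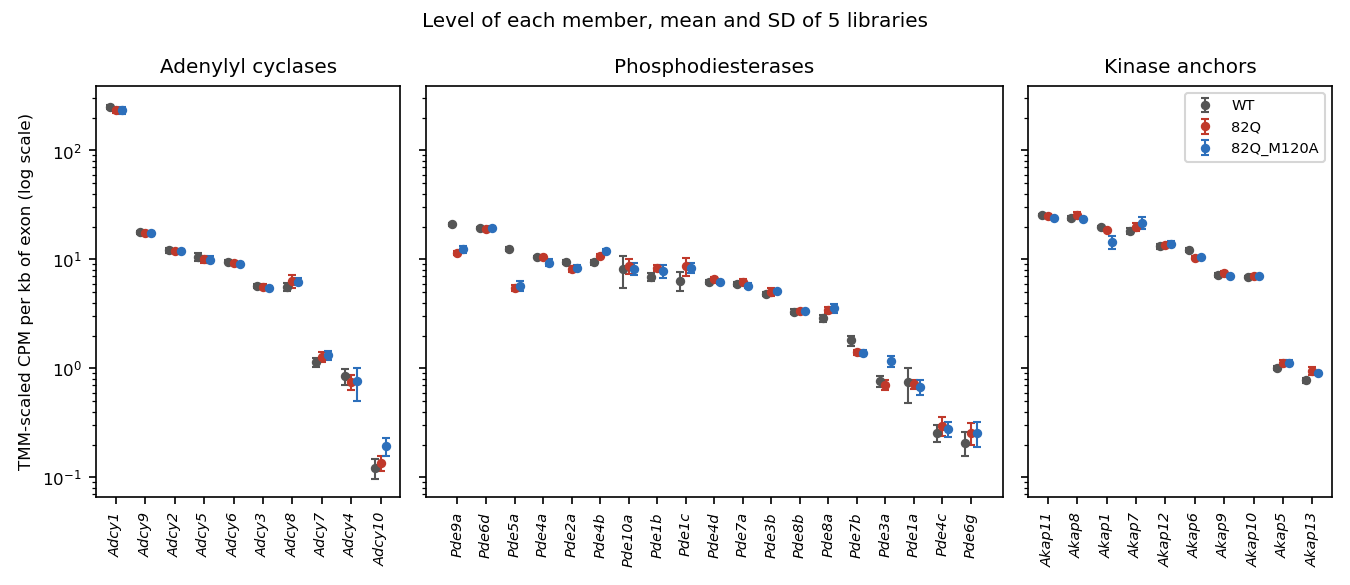
Mean level of each member in TMM-scaled CPM per kb of exon (log scale), with the SD of 5 libraries, for WT (grey), 82Q (red) and 82Q_M120A (blue), ordered within each family by the WT level. Adcy1 stands above every other member at 251 CPM per kb in WT, and the groups lie apart most visibly for Pde9a and Pde5a.

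Among the anchors, Akap1 showed the largest difference in 82Q_M120A. Akap1 encodes an anchor of the outer mitochondrial membrane and lies at chr11:88830792-88864586 on the minus strand. Its level was 88.8, 87.9, 85.7, 88.2 and 87.4 CPM in WT, 81.7, 82.3, 78.5, 85.2 and 81.3 CPM in 82Q, and 63.5, 70.5, 67.0, 49.3 and 68.1 CPM in 82Q_M120A. The 3 groups did not overlap, and 82Q_M120A-4 was the lowest library. Akap1 fell in 82Q_M120A by 0.46 ± 0.07 on the log2 scale against WT (adjusted p = 5.9e-05) and by 0.36 ± 0.07 against 82Q (adjusted p = 0.00134). In 82Q against WT the difference of -0.10 ± 0.07 was not called (adjusted p = 0.352), and it was called in a fit of only those groups (adjusted p = 0.0148) and without 82Q_M120A-4 (adjusted p = 0.0284), with a like fold change.

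Akap6, which encodes the anchor of the nuclear envelope also named mAKAP, lies at chr12:52699383-53155599 on the plus strand. Its level was 181, 175, 194, 177 and 177 CPM in WT, 157, 153, 160, 158 and 144 CPM in 82Q, and 155, 146, 156, 158 and 160 CPM in 82Q_M120A. Both mutant groups lay wholly below WT and overlapped each other. Akap6 fell by 0.22 ± 0.04 on the log2 scale in 82Q (adjusted p = 0.000181) and by 0.22 ± 0.04 in 82Q_M120A (adjusted p = 0.000116), both against WT.

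Akap13, another anchor gene, lies at chr7:75455534-75754609 on the plus strand. Its level was 15.8, 17.0, 17.0, 15.4 and 15.9 CPM in WT, 20.1, 19.3, 18.4, 19.1 and 22.3 CPM in 82Q, and 18.1, 18.8, 20.2, 18.9 and 18.3 CPM in 82Q_M120A. Both mutant groups lay wholly above WT. Akap13 was higher by 0.29 ± 0.05 in 82Q (adjusted p = 0.000517) and by 0.22 ± 0.05 in 82Q_M120A (adjusted p = 0.00285) on the log2 scale. With the brainstem and cerebellar nuclei markers as a covariate these were 0.18 (adjusted p = 0.0927) and 0.11 (adjusted p = 0.285). Microglia markers, 128 to 141 CPM in sum in WT, were at 202 to 214 CPM in 82Q and 190 to 228 CPM in 82Q_M120A. Oligodendrocyte markers, 5116 to 6154 CPM in sum in WT, were at 6292 to 7617 CPM in 82Q and 7089 to 7736 CPM in 82Q_M120A. The part of either list in the Akap13, Pde4b and Pde8a differences was not tested.

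Akap11, the most abundant anchor per kb of exon in WT, encodes a vesicle-associated anchor and lies at chr14:78492246-78536808. Its level was 289, 278, 284, 288 and 273 CPM in WT, 273, 261, 296, 278 and 276 CPM in 82Q, and 268, 263, 259, 258 and 269 CPM in 82Q_M120A. It fell by 0.10 ± 0.03 on the log2 scale in 82Q_M120A against WT (adjusted p = 0.019), a small difference without overlap that was not called without WT-1 or with libraries scaled by their totals. Akap7, which encodes a small membrane anchor, lies at chr10:25169090-25307870. Its level was 84.2, 81.5, 74.6, 74.9 and 83.9 CPM in WT, 77.9, 85.1, 98.7, 91.2 and 83.6 CPM in 82Q, and 91.9, 108, 99.1, 77.0 and 98.2 CPM in 82Q_M120A. All 3 groups overlapped. It was higher by 0.25 ± 0.08 in 82Q_M120A against WT (adjusted p = 0.0223), a call lost without WT-3, WT-4, 82Q_M120A-2 or 82Q_M120A-5 and with the choroid plexus covariate (adjusted p = 0.064). The other 5 anchors, Akap5, Akap8, Akap9, Akap10 and Akap12, were called in no comparison.

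**Figure D4:**
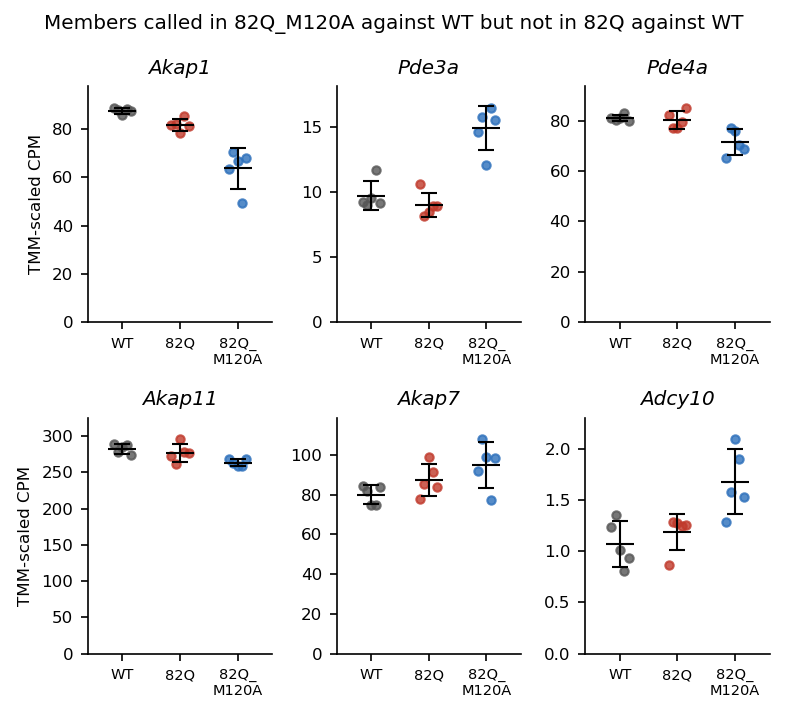
TMM-scaled CPM of the 6 members called in 82Q_M120A against WT and not in 82Q against WT, 1 point per library, with the mean (long line) and SD (short lines) of the 5 libraries of each group. Akap1 lies lower (49.3 to 70.5 CPM) and Pde3a higher (12.1 to 16.5 CPM) in 82Q_M120A than in every library of the other groups.

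Groups did not overlap for 8 members in 82Q against WT (3 higher, 5 lower, beside 16.6% of all tested genes, 6.81% higher and 9.79% lower), for 10 in 82Q_M120A against WT (3 higher, 7 lower, beside 25.3%, 12.4% higher and 12.9% lower) and for 4 in 82Q_M120A against 82Q (3 higher, 1 lower, beside 12.1%, 6.63% higher and 5.5% lower). In 82Q against WT these were Pde5a, Pde9a, Pde7b, Akap6 and Akap1 on the lower side and Akap13, Pde4b and Pde1b on the higher side. In 82Q_M120A against 82Q they were Pde3a, Pde4b and Adcy10 on the higher side and Akap1 on the lower side.

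The membrane adenylyl cyclases, 9 of the 10 Adcy members, were called in no comparison by edgeR, and 0 of 9 were called by DESeq2 or limma-voom. At an unadjusted edgeR p under 0.05 the count was 0 of 9 in 82Q against WT, 1 of 9 in 82Q_M120A against WT (Adcy7, higher) and 0 of 9 in 82Q_M120A against 82Q. In 82Q against WT their log2 fold changes ran from -0.18 (Adcy4) to 0.16 (Adcy8), the 95% intervals reached from -0.58 (Adcy4) to 0.34 (Adcy7), and the lowest adjusted p was 0.197. In 82Q_M120A against WT they ran from -0.17 (Adcy4) to 0.19 (Adcy7), with intervals from -0.57 to 0.38 and a lowest adjusted p of 0.0949. In 82Q_M120A against 82Q they ran from -0.03 (Adcy6) to 0.04 (Adcy7), with intervals from -0.39 to 0.40. The widest intervals belonged to Adcy4, at 3.52 to 3.96 CPM in the group means.

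Adcy1, a calcium and calmodulin stimulated cyclase, was by far the most abundant Adcy member. In WT it made up 79.8% of the summed Adcy level per kb of exon, with Adcy9 next at 5.64%. Adcy1 made up 78.8% in each mutant group. Its gene lies at chr11:7063489-7178506 on the plus strand. Its level was 3233, 3182, 3056, 3307 and 2912 CPM in WT, 2991, 2726, 2949, 3146 and 2846 CPM in 82Q, and 2596, 3088, 2898, 3016 and 3027 CPM in 82Q_M120A. The groups overlapped. The difference from WT was -0.10 ± 0.05 on the log2 scale in both 82Q (adjusted p = 0.198) and 82Q_M120A (adjusted p = 0.127). With the choroid plexus markers as a covariate it was called, at -0.14 (adjusted p = 0.0123) and -0.20 (adjusted p = 0.00134). The mean of that list differs between the groups, as given above.

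Adcy10, the soluble cyclase, was near the level limit. Its gene lies at chr1:165485183-165576774, and its count was 35 to 205 per library. Its level was 1.24, 1.35, 1.01, 0.808 and 0.936 CPM in WT, 0.869, 1.29, 1.27, 1.24 and 1.25 CPM in 82Q, and 1.29, 1.58, 2.09, 1.90 and 1.53 CPM in 82Q_M120A. The 82Q_M120A libraries overlapped WT and lay just above 82Q. Adcy10 was higher in 82Q_M120A by 0.64 ± 0.16 on the log2 scale against WT (adjusted p = 0.00507) and by 0.50 ± 0.16 against 82Q (adjusted p = 0.0373). The second call was lost without 82Q-1, 82Q-3, 82Q-4, 82Q-5, 82Q_M120A-3 or 82Q_M120A-4.

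Other genes of the cyclic nucleotide pathway were read from 5 lists. Of the 8 genes on the G protein list (7 alpha subunits that act on the cyclases and the chaperone gene Ric8b), 4 were called lower and 0 higher by edgeR in each comparison with WT. None of the 8 was higher at an unadjusted p under 0.05 or called higher by DESeq2 or limma-voom. Gnao1 was at 559 ± 11.1 CPM in WT, 432 ± 14.7 CPM in 82Q and 452 ± 20.0 CPM in 82Q_M120A, a fall of 0.37 on the log2 scale in 82Q (adjusted p = 5.01e-07). Gnai1, which encodes an inhibitory alpha subunit, fell by 0.34 (adjusted p = 7.75e-07), and Gnal, which encodes a stimulatory one, fell by 0.35 (adjusted p = 5.13e-06). The more abundant stimulatory gene Gnas, named after its values were seen, was at 987 ± 29.5, 966 ± 46.7 and 977 ± 20.5 CPM and was called in no comparison.

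Of the 10 tested genes of cyclic GMP synthesis and its kinase, 2 were called higher and 3 lower in 82Q, and 2 higher and 4 lower in 82Q_M120A, both against WT. Over all tested genes the shares called were 18.7% and 36.4%. Npr1, which encodes the natriuretic peptide receptor that makes cyclic GMP, was at 21.2 ± 1.64 CPM in WT, 8.48 ± 1.06 CPM in 82Q and 7.80 ± 0.977 CPM in 82Q_M120A. It fell by 1.32 on the log2 scale in 82Q (adjusted p = 5.01e-09) and fell by 1.44 in 82Q_M120A (adjusted p = 1.44e-09). Ppp1r17, which encodes the substrate of the cyclic GMP-dependent kinase in Purkinje cells and is also on the Purkinje marker list, was at 269 ± 15.8, 130 ± 14.8 and 133 ± 12.9 CPM. Prkg1, the kinase gene itself, was at 35.9 ± 1.84, 25.1 ± 1.93 and 24.8 ± 2.17 CPM, and fell by 0.52 in 82Q (adjusted p = 6.11e-06). Other genes on the list did not follow these falls. Gucy1a3, a soluble guanylyl cyclase subunit gene, was called higher in both mutant groups, at 57.0 ± 2.10, 62.0 ± 2.56 and 62.1 ± 3.15 CPM. Npr2, another natriuretic peptide receptor gene, was called in none of the comparisons, at 94.7 ± 3.60, 101 ± 3.31 and 94.3 ± 4.43 CPM. Both were named after their values were seen. None of the 10 was called by edgeR in 82Q_M120A against 82Q (1 lower at an unadjusted p under 0.05, 1 lower by DESeq2 and 0 by limma-voom).

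Of the 17 tested cyclic AMP effectors and targets, 1 was called higher and 2 lower in 82Q, and 4 higher and 2 lower in 82Q_M120A, against WT. These counts stood beside 18.7% and 36.4% of all tested genes called. Ppp1r1b, which encodes DARPP-32, was at 143 ± 7.66, 89.3 ± 8.57 and 87.1 ± 5.78 CPM. Rapgef4, which encodes a cyclic AMP-activated exchange factor, was at 222 ± 3.23 CPM in WT, 204 ± 6.78 CPM in 82Q and 247 ± 8.16 CPM in 82Q_M120A. It was called lower in 82Q against WT (adjusted p = 0.00694) and higher in 82Q_M120A against both WT (adjusted p = 0.000312) and 82Q (adjusted p = 2.26e-06). Of 9 protein kinase A subunits and inhibitors, 3 were called in 82Q against WT (1 higher, 2 lower), 4 in 82Q_M120A against WT (2 higher, 2 lower) and 5 in 82Q_M120A against 82Q (3 higher, 2 lower). All tested genes were called at 18.7%, 36.4% and 18.9% in that order. Prkaca was called in both comparisons of 82Q_M120A, lower by 0.21 on the log2 scale against WT (adjusted p = 5.09e-05).

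Of 13 anchors with other names, 1 was called higher and 1 lower in 82Q, and 2 higher and 3 lower in 82Q_M120A, against WT. The shares of all tested genes called were 18.7% and 36.4%. Gskip, which encodes an anchor that also binds GSK3, was at 41.5 ± 1.55, 30.6 ± 1.23 and 31.0 ± 1.84 CPM, a fall of 0.44 on the log2 scale in 82Q (adjusted p = 6.1e-07). Nbea, which encodes neurobeachin, was at 316 ± 13.7, 308 ± 16.7 and 270 ± 18.1 CPM and was called lower in 82Q_M120A against both WT (adjusted p = 0.00114) and 82Q (adjusted p = 0.01). Myo7a, a myosin gene on the same list, was at 6.05 ± 2.05 and 4.87 ± 2.51 CPM in WT and 82Q and at 18.1 ± 5.22 CPM in 82Q_M120A.

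**Figure D5:**
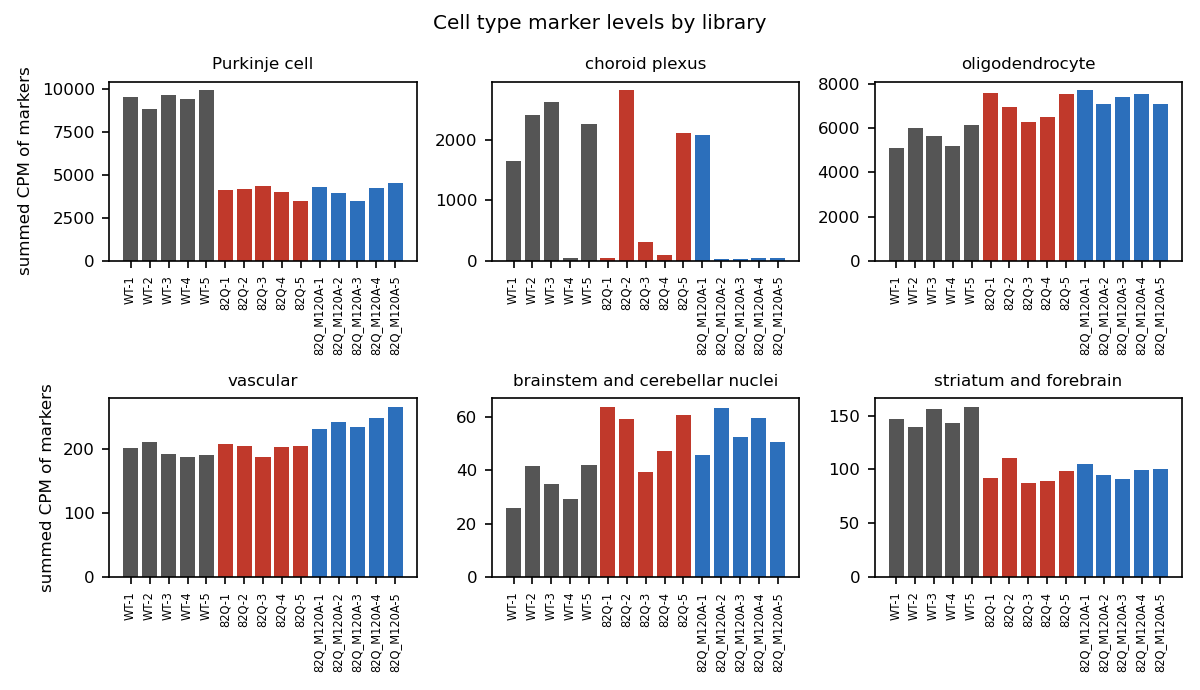
Summed TMM-scaled CPM of 6 lists of cell type markers in each of the 15 libraries (grey WT, red 82Q, blue 82Q_M120A; bars start at 0). Purkinje cell markers are lower in every mutant library, choroid plexus markers differ within each group, and the striatum and forebrain sum is mostly Ppp1r1b, at 143 CPM in WT beside 0.355 CPM for Drd1.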

How the data were processed

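The authors deposited read counts per gene symbol for 15 cerebellum libraries. Per the submitters' processing notes, CASAVA 1.8, HISAT2 2.0.1, featureCounts, Subread, R 3.3.3 and DESeq2 1.14.1 were used with build mm10. The gene annotation, the use of strand and the treatment of multi-mapping reads are not stated there (not given in the sources used here). Columns name the group and no replicate number.

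From these counts, 16808 genes passed edgeR's filterByExpr, and a quasi-likelihood model (edgeR 4.0.16, limma 3.58.1, R 4.3.3; TMM factors of 0.971 to 1.02, robust glmQLFit, group as the only factor) was fitted to all 15 libraries, with 12 residual degrees of freedom. Tests were two-sided, with Benjamini-Hochberg adjustment over all tested genes. The SE of a log2 fold change is its size over the root of F, and CPM values are TMM-scaled. The common biological coefficient of variation was 0.105. Within groups, libraries differed by more than counting error (chi-square per degree of freedom 6.84 to 69 over 30 pairs). The fitting steps were run on counts simulated from the means, dispersions and library sizes of these data. Such counts follow the fitted model, so the run checks the code and not the model or the calls. Exon lengths and coordinates are from GENCODE M21 (GRCm38), promoters from RefSeq (GRCm38.p6).

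The members, the pathway lists and the markers were chosen with earlier results of these data known. Every member may be named; values per library are given for up to 6 called members per family, by smallest adjusted p, and for Adcy1 and Akap11 as the most abundant. From each pathway list up to 3 called genes per comparison may be named. Alternatives were DESeq2 1.42.0, limma-voom, other scalings, filters and thresholds, a 1.2-fold test, fits of only the groups compared, marker covariates and leaving out each library. The brainstem and cerebellar nuclei covariate was chosen after seeing the data.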

Additional observations from a re-analysis of the deposited data

Results flagged for a closer look

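Each member was checked in each group for a library that stood far from its nearest neighbour (gap over range above 0.71 for 5 libraries). Of 117 member and group combinations, 7 met this, or 5.98%, and chance gives about 1 in 20. In WT-4, Pde2a was low at 53.8 CPM, Pde3a was high at 11.7 CPM and Pde7b was high at 26.7 CPM. Pde9a was high in 82Q_M120A-4 at 49.5 CPM, and Adcy8 was high in 82Q_M120A-2 at 57.2 CPM. Adcy10 was low in 82Q-1 at 0.869 CPM, and Pde6g was high in 82Q-5 at 0.834 CPM. WT-4 held 3 of the 7, and its choroid plexus markers summed to 41.3 CPM, the lowest of the WT libraries.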

How the results depend on the processing

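For the 16 members called at least once, Adcy1 and Pde6d, 54 differences were recomputed under 26 alternatives, 15 of which left out 1 library each. None of the 1404 values changed direction among called differences, 1293 stayed on their side of the threshold, 103 lost a call and 8 gained one; 8 of the 31 calls held in all 26.

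At an adjusted p under 0.01, all-gene calls were 1823 (82Q against WT), 4060 (82Q_M120A against WT) and 1645 (both mutant groups compared), with 3 members in the last. Against a 1.2-fold change (glmTreat) they were 689, 1709 and 630, and 2, 6 and 1 members. With the brainstem and cerebellar nuclei covariate, 6 members were called in 82Q against WT, 5 of them among the 10. All-gene calls in that comparison fell to 2369 from 3142. Members called back toward WT were 1, but 0 under limma-voom, no low-count filter, only the groups compared, adjusted p under 0.01, the 1.2-fold test and the choroid plexus covariate, and 2 with libraries scaled by totals. The like count over all tested genes was not made, so the members called back have no background beside them. Scaling by totals moved the all-gene split in 82Q against WT to 3063 higher and 1134 lower from 1451 and 1691. In 82Q_M120A against WT the split moved to 4647 and 2107 from 3129 and 2989. The median moved by 0.05 in both. TMM factors, which that scaling leaves out, were 0.971 to 0.987 in WT and 1.003 to 1.024 in the mutant libraries. Why the factors differ by group was not tested.

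Leaving out 1 library gave 2567 to 3319, 5450 to 6454 and 2562 to 3210 genes, 8 to 10, 13 to 16 and 4 to 8 members, and 0 to 1 called back. No paired analysis was possible because the columns carry no replicate number. Depth limits Pde6g, Adcy10 and Pde4c, the members with the lowest counts.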
